A study of Drosophila melanogaster with 6 samples.

Results

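The male-specific lethal (MSL) complex and its noncoding RNAs were followed in RNA-seq libraries of a female-derived *Drosophila melanogaster* cell line. The set comprised the 7 genes *msl-1*, *msl-2*, *msl-3*, *mof*, *mle*, *lncRNA:roX1* and *lncRNA:roX2*, taken by symbol from a table of 17807 genes. All 7 were found in it. The cells were ovarian somatic cells (OSCs), a line that grew out of the follicle cells of the ovary, and all of them, controls included, were of the l3mbt knockout genotype (Δ*l(3)mbt* OSCs). L(3)mbt is a chromatin protein that keeps germline genes off in somatic cells. Cells received a 21 nt siRNA duplex against *ovo*, a gene for a DNA-binding zinc finger protein that drives female germline expression (3 libraries), or against *renilla*, a luciferase gene absent from the fly genome (3 libraries), and RNA was collected at 48 h. The study describes its replicates as distinct samples, and neither it nor the labels say whether these were separate cultures, so the p values below measure the spread between libraries, which may be technical.

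In flies the MSL complex acetylates histone H4 on the single male X chromosome and raises its transcription to match the pair of X chromosomes of females. MSL2 is the subunit that is lacking in females: the RNA-binding protein Sex-lethal (Sxl) keeps an intron in the 5′UTR of the *msl-2* RNA unspliced and blocks translation, acting through runs of uridine in both UTRs. Without MSL2 the complex does not form, and the 2 roX RNAs, which in males coat the X chromosome together with the complex, are largely confined to males. The remaining subunits are made in both sexes.

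Sequences of the kinds through which this system is known to work are shown first, since the *msl-2* and roX results below refer to them. Only uridine runs of at least 8 were listed, so shorter runs, including any bound by Sxl, are left out. The bases were read from the RefSeq dm6 genome (Release 6) with the Ensembl gene models, on the sense strand of each RNA. In *msl-2* (chromosome 2L, minus strand), an intron of the 5′UTR at chr2L:3465919-3466051 (133 bases), which the annotation gives both as spliced and as retained, held 2 runs of at least 8 uridines, of 11 and 16. The 3′UTR at chr2L:3462218-3463265 (1048 bases) held another 2, of 9 uridines each. The windows of 30 bases around the runs, with the run in capitals, were as follows.
msl-2 5′UTR intron, run 1 (chr2L:3466037-3466047): guaaUUUUUUUUUUUaguugcuaauuuauu
msl-2 5′UTR intron, run 2 (chr2L:3465934-3465949): aaaccaaUUUUUUUUUUUUUUUUgcacgug
msl-2 3′UTR, run 1 (chr2L:3462580-3462588): caaaacucaaUUUUUUUUUaauacguauua
msl-2 3′UTR, run 2 (chr2L:3462393-3462401): aaaaaaaaccUUUUUUUUUaauaggcuaag
A run of at least 8 uridines stood in 92 of 1271 introns within 10 bases of the same length (7.24%). These introns came from any part of a gene, and the share with 2 runs was not counted. At least 2 runs of at least 8 uridines stood in the first 1048 bases of 102 of 1935 3′UTRs of at least that length (5.27%).

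The roX RNAs carry a short conserved element near the 3′ end, the roX box, which lies in the stems that the RNA helicase MLE opens. The box was searched on the sense strand as GUUNUACG. *lncRNA:roX1* (chromosome X, 3857230 to 3862697, minus strand) held 3 copies and *lncRNA:roX2* (chromosome X, 11579065 to 11580432, plus strand) held 2. The box is in capitals.
roX1 box 1 (chrX:3859033-3859040): ugcugaucaacGUUCUACGcaguucuuaaa
roX1 box 2 (chrX:3858966-3858973): uguguggaaacGUUAUACGaaucuucacca
roX1 box 3 (chrX:3858915-3858922): aaauugaaaucGUUAUACGccugagccgau
roX2 box 1 (chrX:11580079-11580086): auauggguaacGUUUUACGcgccuuaacca
roX2 box 2 (chrX:11580144-11580151): acuagugaaauGUUAUACGaaacuuaacaa
The copies in *lncRNA:roX2* ended 346 and 281 bases before its 3′ end, and those in *lncRNA:roX1* ended 1803, 1736 and 1685 bases before the annotated 3′ end. As a background for *lncRNA:roX2*, the last 1368 exonic bases (its own length) of 9115 genes were searched, a window that leaves out the copies of *lncRNA:roX1*. Of these genes, 535 (5.87%) held the box and 13 (0.143%) held it at least 2 times.

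The reads summed over genes ran between 14276921 and 21481506 in the *ovo* siRNA libraries and between 2759594 and 11623446 in the *renilla* siRNA libraries, where replicate 3 was the shallowest. A gene with no read could still stand at 1.39 normalized counts in *ovo* siRNA replicate 2, the deepest library, and at 13.1 in *renilla* siRNA replicate 3. The libraries also differed in how levels followed transcript length, with a Spearman correlation across genes between length and deviation from the gene mean of 0.238, -0.241 and -0.406 in *ovo* siRNA libraries 1 to 3 and of 0.508, 0.481 and -0.410 in *renilla* siRNA libraries 1 to 3. Of the 8 testis markers, 4 (*dj*, *Mst98Ca*, *can* and *sa*) were at 0 in all 6 libraries, and the 8 summed to 16.7 to 23.8 normalized counts in *ovo* siRNA libraries and 17.5 to 52.8 in *renilla* siRNA libraries. Follicle cell markers (*tj*, *fs(1)Yb*, *Fas3*, *ct* and *mirr*) were all present and summed to 13448 to 13927 in *ovo* siRNA libraries, against 18194 to 20795 in *renilla* siRNA libraries. Of these 5, 1 rose and 3 fell; their part in the results below was not tested. Germ cell markers summed to 3390 to 3655 in *ovo* siRNA libraries against 2789 to 3523 in *renilla* siRNA libraries, mostly from *vas* and *bgcn*. Hemocyte markers summed to 537 to 818 against 320 to 632, mostly from *srp* and *Pxn*. Neuron markers summed to 1598 to 1824 against 1633 to 2335, mostly from *elav*. No other marker of these 3 cell types exceeded 18.2 normalized counts in any library. Only 2 germ cell, 2 hemocyte and 1 neuron markers could be tested, and none passed. The target *ovo* stood at 961, 885 and 875 normalized counts in *ovo* siRNA libraries, against 1300, 1590 and 1642 in *renilla* siRNA libraries. It fell by 0.73 ± 0.13 on the log2 scale (SE, limma adjusted p = 0.00862). It missed the threshold on leaving out *ovo* siRNA replicate 2 (-0.71, adjusted p = 0.0601) and after a correction for transcript GC and length described below (-0.42, adjusted p = 0.135). The *l(3)mbt* RNA averaged 2911 ± 426 and 2334 ± 582 normalized counts in *ovo* siRNA and *renilla* siRNA libraries (SD, n = 3 each), and its level does not check the knockout.

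By the rule used, no member was silent. A gene was called silent where no library reached 10 normalized counts and low where fewer than 3 did, which made 6 members expressed and 1, *lncRNA:roX2*, low. *lncRNA:roX2* reached 10 only in *renilla* siRNA replicates 2 and 3 and in no *ovo* siRNA library. In *renilla* siRNA replicate 3 the threshold of 10 lies under the 13.1 that a gene with no read allows. *lncRNA:roX1* counted as expressed at 9.22 to 26.3 normalized counts. Both roX RNAs averaged below every protein subunit. In bulk libraries, fewer cells with an RNA and less of it per cell cannot be told apart. Levels were compared per kb of exon, as normalized counts. In *ovo* siRNA libraries the order was *msl-3* (212 ± 7.07), *mle* (190 ± 24.0), *mof* (144 ± 4.39), *msl-1* (127 ± 20.03), *msl-2* (39.3 ± 8.14), *lncRNA:roX2* (3.40 ± 1.47) and *lncRNA:roX1* (2.08 ± 0.3402; SD, n = 3). The neighbours *msl-3* and *mle*, *mof* and *msl-1*, and the 2 roX RNAs overlapped in range. In *renilla* siRNA libraries *mle* (148 ± 38.7), *msl-1* (144 ± 35.3) and *msl-3* (143 ± 14.4) overlapped, followed by *mof* (110 ± 7.12), *msl-2* (32.2 ± 16.04), *lncRNA:roX2* (17.1 ± 13.8) and *lncRNA:roX1* (3.42 ± 1.23), of which *msl-2* overlapped *lncRNA:roX2*, and *lncRNA:roX2* overlapped *lncRNA:roX1*. Among the 5 protein genes *msl-2*, whose protein females lack, had the lowest level per kb in each of the 6 libraries. *lncRNA:roX2* lay above *msl-2* in 1 library, *renilla* siRNA replicate 3 (32.0 against 13.7 per kb).

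**Figure D1:**
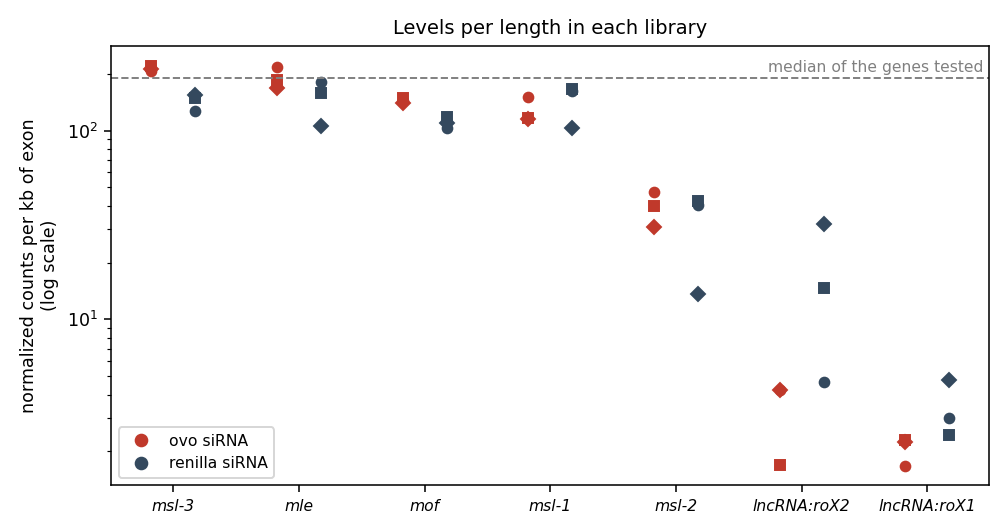
Level of each member in DESeq2-normalized counts per kb of exon (log axis), in *ovo* siRNA libraries (red, left) and *renilla* siRNA libraries (dark blue, right); circles, squares and diamonds are replicates 1, 2 and 3. Every library has *msl-2* under the other protein genes. The roX RNAs lie lowest, except that *lncRNA:roX2* is above *msl-2* in *renilla* siRNA replicate 3, and the median of the genes tested is 190 per kb (dashed).

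Set against the 7893 genes that passed the filter of 10 normalized counts in at least 3 libraries, whose median was 190 normalized counts per kb over all 6 libraries, *msl-3*, *mle*, *msl-1* and *mof* lay at the 47.9, 46.2, 39.5 and 37.6 percentiles and *msl-2* at the 15.2 percentile. *lncRNA:roX2* would have lain at the 5.83 percentile and *lncRNA:roX1* lay at the 0.877 percentile. In this poly(A)-selected RNA, 4 of the protein subunits therefore stood below the median of the genes tested, *msl-2* in the lower range and the roX RNAs near the bottom. The filter leaves out genes with fewer counts, so genes close to it lie low in that set. Among 12755 genes with reads, *lncRNA:roX1*, *lncRNA:roX2* and *msl-2* lay at the 31.0, 40.1 and 47.4 percentiles. *mof*, *msl-1*, *mle* and *msl-3* lay there at the 61.5, 62.6, 66.8 and 67.9 percentiles.

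Of the 7 members, 6 could be tested. With the *ovo* siRNA, 1 rose (*msl-3*), 0 fell and 5 did not pass the limma test at an adjusted p of 0.05. Over all genes tested 25.9% passed, 11.8% upward and 14.1% downward. At an unadjusted p under 0.05 limma gave 2 members, *msl-3* and *mof*, both higher with the *ovo* siRNA, and 0 lower. At an adjusted p under 0.05, edgeR and DESeq2 on the recovered reads called these 2, while limma called *msl-3* only. The groups did not overlap for 3 of the 6, against 45.2% of all genes tested. The median log2 fold change of the 6 was 0.39, against 0.043 over all genes tested.

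**Figure D2:**
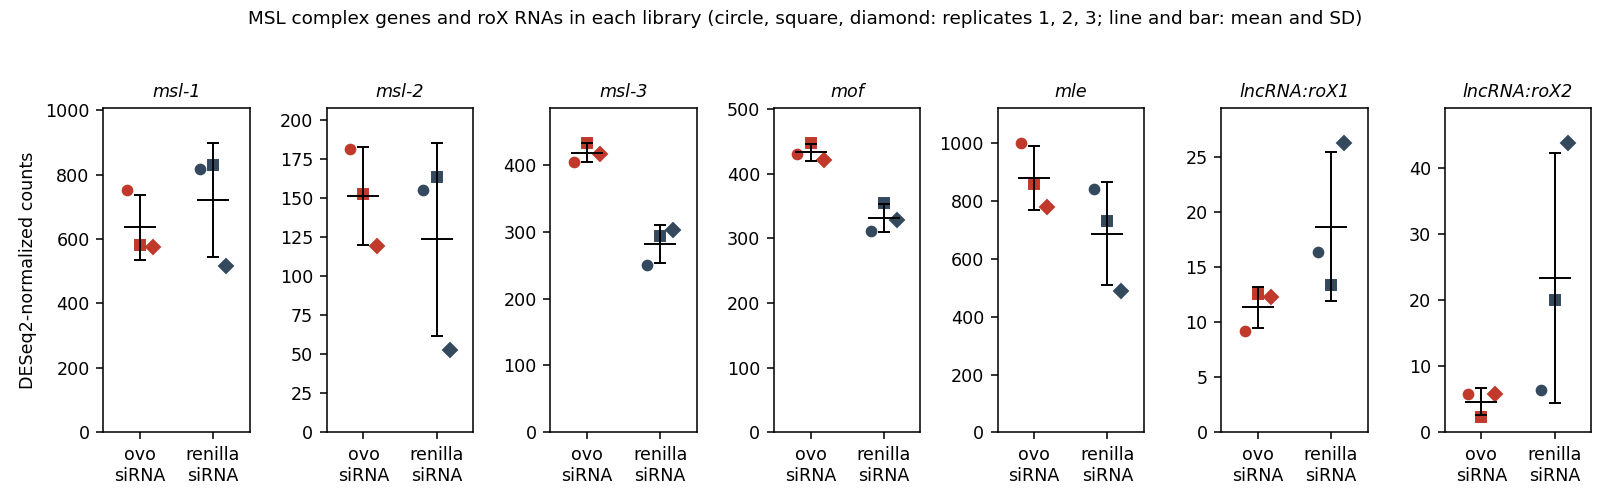
DESeq2-normalized counts of each member by library (each panel starts at 0 and has its own scale); circles, squares and diamonds are replicates 1, 2 and 3, and the line and bar are the mean and SD of 3 libraries. The groups separate for *msl-3*, *mof* and both roX RNAs, for the roX RNAs by less than 1 normalized count. *renilla* siRNA replicate 3 lies apart from its group for *msl-1*, *msl-2*, *mle* and both roX RNAs.

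*msl-3* (FBgn0002775, chromosome 3L, 7123213 to 7125533, minus strand) encodes the chromodomain subunit that reads histone methylation on active genes and lets the complex spread. It had 405, 433 and 417 normalized counts in *ovo* siRNA libraries, against 250, 294 and 302 in *renilla* siRNA libraries. All *ovo* siRNA libraries were above all *renilla* siRNA libraries, with means of 418 ± 13.9 and 282 ± 28.3 (SD, n = 3 each). It rose 1.49-fold, a log2 fold change of 0.57 ± 0.13 (SE, limma adjusted p = 0.0193). Leaving out *renilla* siRNA replicate 3 gave 0.62 (adjusted p = 0.00186), and the value stayed between 0.43 and 0.67 under 18 alternatives. The call was lost on leaving out any other single library, with an adjusted p of 0.0507, 0.108 and 0.0814 without replicates 1, 2 and 3 of the *ovo* siRNA group and of 0.0656 and 0.0530 without replicates 1 and 2 of the *renilla* siRNA group. It was also lost with reads thinned to the smallest library (0.67, adjusted p = 0.0729). Of its exons, 4.31% overlap *form3* on the opposite strand, and the counting used strand.

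*mof* (FBgn0014340, chromosome X, 5873840 to 5876853, minus strand) encodes the histone acetyltransferase of the complex, which also works in the nonspecific lethal (NSL) complex of both sexes. It had 430, 447 and 421 normalized counts in *ovo* siRNA libraries, against 312, 354 and 328 in *renilla* siRNA libraries. The groups did not overlap, with means of 433 ± 13.2 and 331 ± 21.5 (SD, n = 3 each), but at a log2 fold change of 0.39 ± 0.12 it missed the threshold in limma (adjusted p = 0.0520). edgeR (0.38, adjusted p = 0.0444), DESeq2 (0.36, adjusted p = 0.0355) and limma without *renilla* siRNA replicate 3 (0.38, adjusted p = 0.0187) called it. After a correction that took a smooth trend in transcript GC and length out of each library, the value was 0.11 (adjusted p = 0.493).

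*mle* encodes the RNA helicase that remodels roX RNA, and *msl-1* the scaffold on which MSL2, MSL3 and MOF assemble. *mle* (FBgn0002774, chromosome 2R, 5974857 to 5980778, minus strand) had 1001, 860 and 781 normalized counts in *ovo* siRNA libraries, against 841, 732 and 490 in *renilla* siRNA libraries. The groups overlapped, and the log2 fold change was 0.38 ± 0.21 (95% interval -0.11 to 0.88, limma adjusted p = 0.217). Among the 18 alternatives, *mle* was called only after the GC and length correction (0.46, adjusted p = 0.0141). *msl-1* (FBgn0005617, chromosome 2L, 18683720 to 18688800, minus strand) had 753, 582 and 576 normalized counts in *ovo* siRNA libraries, against 817, 830 and 517 in *renilla* siRNA libraries. Here the *renilla* siRNA libraries spanned the whole *ovo* siRNA range, and the log2 fold change was -0.16 ± 0.21 (95% interval -0.65 to 0.34, limma adjusted p = 0.618). The direction of *msl-1* depended on the processing: without *renilla* siRNA replicate 3 it was -0.38 (adjusted p = 0.0320), and after the GC and length correction it was 0.13 (adjusted p = 0.380).

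*msl-2* (FBgn0005616, chromosome 2L, 3462218 to 3466112, minus strand) had 181, 153 and 119 normalized counts in *ovo* siRNA libraries, against 155, 163 and 52.5 in *renilla* siRNA libraries. The 2 deeper *renilla* siRNA libraries lay within the *ovo* siRNA range, and replicate 3 lay below all others on 12 reads, a Poisson 95% interval of 27.2 to 91.8 normalized counts, which like the other counting intervals here covers counting error only. The log2 fold change was 0.43 ± 0.42 (SE, limma adjusted p = 0.482), with a 95% interval of -0.55 to 1.41, that is from 0.683-fold to 2.66-fold, so that neither a rise of 2-fold nor a modest fall could be told from no change. Without *renilla* siRNA replicate 3 the value turned to -0.0945 (adjusted p = 0.682). The gene-level table does not separate the spliced and intron-retaining forms of the 5′UTR shown above, nor does it measure translation. Of its exons, 2.89% are shared with *mir-4971* on the same strand.

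Relative to the other subunits, *msl-2* per kb stood at 0.315, 0.343 and 0.270 of *msl-1* per kb in *ovo* siRNA libraries, against 0.248, 0.257 and 0.133 in *renilla* siRNA libraries. These ratios did not overlap, and their two-sided exact permutation p of 0.1 is the smallest that 3 against 3 libraries allow (0.4 after Benjamini-Hochberg adjustment over the 4 ratios formed). The ratios of *msl-2* to *msl-3*, *mof* and *mle* overlapped between the groups (exact permutation p of 0.7, 0.9 and 0.9; 0.9 adjusted for each).

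*lncRNA:roX1* (FBgn0019661) had 9.22, 12.5 and 12.3 normalized counts in *ovo* siRNA libraries, against 16.4, 13.4 and 26.3 in *renilla* siRNA libraries. These came from 19, 27 and 17 reads in *ovo* siRNA libraries and from 18, 14 and 6 reads in *renilla* siRNA libraries. The groups were apart by less than 1 normalized count, and the Poisson 95% intervals of all 6 libraries overlapped. The log2 fold change was -0.63 ± 0.36 (95% interval -1.45 to 0.20, limma adjusted p = 0.229). It changed sign with reads thinned to the smallest library (0.32, adjusted p = 0.752) and after the GC and length correction (0.16, adjusted p = 0.817). An overlap with *ec* on the opposite strand covers 7.17% of *lncRNA:roX1*.

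*lncRNA:roX2* (FBgn0019660) had 5.82, 2.32 and 5.80 normalized counts in *ovo* siRNA libraries, against 6.38, 20.05 and 43.8 in *renilla* siRNA libraries. The reads behind them were 12, 5 and 8 in *ovo* siRNA libraries and 7, 21 and 10 in *renilla* siRNA libraries. *renilla* siRNA replicate 1 was close to the *ovo* siRNA libraries (Poisson 95% interval 2.56 to 13.1), while replicates 2 (12.4 to 30.6) and 3 (21.0 to 80.5) were higher. The groups did not overlap, though by less than 1 normalized count. Only 2 libraries reached 10 normalized counts, so *lncRNA:roX2* was not tested. In a fit without the filter its log2 fold change was -1.83 ± 0.70 (limma adjusted p = 0.129). Over all reads of a group, *lncRNA:roX1* took 63 of 55858151 reads with the *ovo* siRNA and 38 of 25720700 with the *renilla* siRNA, and *lncRNA:roX2* took 25 and 38 reads of the same totals.

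Sxl and the proteins that act with it on *msl-2* RNA formed the list of related genes that moved most. All 5 of its genes fell in limma with the *ovo* siRNA, against 14.1% of all genes tested (median log2 fold change -1.22, against 0.043). All 5 also fell with edgeR and DESeq2. After the GC and length correction only 2 of the 5 fell, against 1127 of all 7893 genes tested. The lists were chosen with earlier results of these data known. *Sxl*, the switch gene of female development, had 2683, 2541 and 2271 normalized counts in *ovo* siRNA libraries, against 5336, 5844 and 4528 in *renilla* siRNA libraries. It fell by 1.06 ± 0.14 on the log2 scale (SE, limma adjusted p = 0.00335), a call that did not hold after the correction. Its female and male splice forms were not separated by the table.

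*Unr*, which is recruited by Sxl to the *msl-2* 3′UTR to block translation, averaged 14704 ± 1475 and 51428 ± 9661 normalized counts in *ovo* siRNA and *renilla* siRNA libraries (SD, n = 3 each) and fell by 1.80 ± 0.19 on the log2 scale (adjusted p = 0.00205). *pAbp*, the poly(A)-binding protein, averaged 47476 ± 3107 and 158950 ± 60879 and fell by 1.68 ± 0.28 (adjusted p = 0.00683), or by 0.64 with quantile normalization (adjusted p = 0.00834). *Hrb27C*, an hnRNP that assists repression through the *msl-2* 3′UTR, averaged 24363 ± 1547 and 57844 ± 14439 and fell by 1.22 ± 0.21 (adjusted p = 0.00743). *how*, which acts with Sxl on splicing of the *msl-2* 5′UTR intron, averaged 2206 ± 318 and 3972 ± 915 and fell by 0.83 ± 0.20 (adjusted p = 0.0223). The exons of these 5 genes are 4303 to 9192 bases long, against a median of 2149 over the genes tested. The 2 that passed after this GC and length correction were *Unr* (-0.82, adjusted p = 0.0363) and *pAbp* (-1.22, adjusted p = 0.0329). *Sxl* then stood at 0.0071 (adjusted p = 0.966), *Hrb27C* at -0.22 (adjusted p = 0.581) and *how* at -0.19 (adjusted p = 0.183). Without *ovo* siRNA replicate 2, *Hrb27C* (adjusted p = 0.0542) and *how* (adjusted p = 0.101) did not pass, and *how* also missed the threshold without *ovo* siRNA replicate 3, *renilla* siRNA replicate 1 or *renilla* siRNA replicate 2 (adjusted p = 0.0942, 0.0718 and 0.0819).

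**Figure D3:**
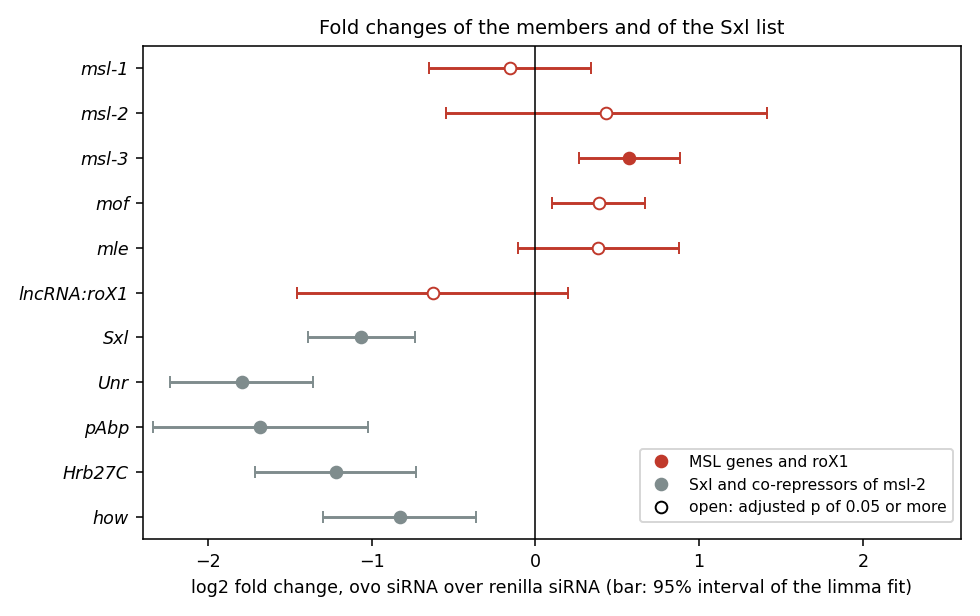
Log2 fold changes of *ovo* siRNA over *renilla* siRNA with the 95% interval of the limma fit, for the 6 members tested (red) and for *Sxl* and the proteins that act with it on *msl-2* RNA (grey); filled points have an adjusted p under 0.05. The 5 genes of the *Sxl* list lie between -1.80 and -0.83, *msl-3* lies at 0.57, and the interval of *msl-2* crosses 0.

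In the remaining 3 lists of related genes limma called 0 genes, edgeR 0 and DESeq2 3. The cofactors of female-specific *Sxl* splicing, which comprise spliceosome and m6A proteins, had 9 genes tested with a median log2 fold change of 0.30. At an unadjusted p under 0.05 limma gave 2 higher and 0 lower, the m6A writer subunits *vir* (0.73 ± 0.29, adjusted p = 0.102) and *Mettl14* (0.40 ± 0.14, adjusted p = 0.0784), and DESeq2 called *Mettl14*. The m6A reader *Ythdc1* stood at 0.26 ± 0.16 and the splicing factor *U2af50* at 0.17 ± 0.14 (SE). The NSL complex, the other home of MOF, had 6 genes tested with a median of 0.0089, none at an unadjusted p under 0.05 in limma and 0 with DESeq2. Its *Rcd1* and *MBD-R2* stood at 0.091 ± 0.20 and 0.089 ± 0.18. Chromatin factors linked to the MSL complex had 13 genes tested with a median of 0.090. At an unadjusted p under 0.05 limma gave 1 higher, *scf* (0.41 ± 0.15), and 2 lower, the kinase gene *JIL-1* (-0.43 ± 0.15, adjusted p = 0.0638) and the nucleoporin gene *Nup153* (-0.60 ± 0.23, adjusted p = 0.0984). DESeq2 called these 2 lower. The topoisomerase gene *Top2* stood at 0.20 ± 0.22.

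Since the MSL complex acts on the X chromosome, the X-linked genes were counted. Of 1391 tested, 221 rose (15.9%) and 218 fell (15.7%), so that 31.6% passed limma in either direction, against 25.9% of all genes tested. The median log2 fold change of X-linked genes was 0.087, against 0.043 over all genes. Without the correction, chromosome arms 2L, 2R, 3L and 3R had between 23.4% and 24.9% passing, and chromosome 4 had 50.7% of its 75 genes. After the GC and length correction, 207 X-linked genes rose and 188 fell (28.4%), with a median of 0.036. In that fit 995 of all 7893 genes rose and 1127 fell, with a median of 0.018. The other chromosome arms then had between 25.0% (3R) and 28.3% (3L) passing.

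The level of X-linked genes was also set against that of genes on chromosomes 2 and 3 within each library, as the ratio of the medians of normalized counts per kb. The ratio was 0.911, 0.912 and 0.920 in *ovo* siRNA libraries, against 0.870, 0.870 and 0.888 in *renilla* siRNA libraries. The groups did not overlap, with means of 0.914 ± 0.005 and 0.876 ± 0.010 (SD, n = 3 each) and a difference of 0.0385, and the two-sided exact permutation p of 0.1 is the smallest that 3 against 3 libraries allow. The difference was 0.0196 (exact permutation p = 0.3) over genes averaging 100 normalized counts or more and 0.0188 (exact permutation p = 0.4) against chromosome arm 2R alone, and in both cases the groups overlapped. The ratio was not formed with the GC and length trend removed.

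**Figure D4:**
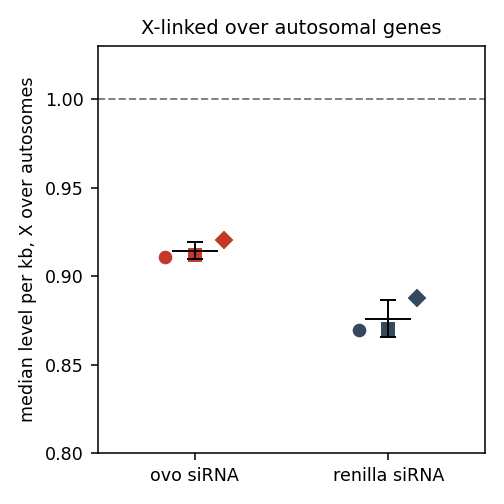
Ratio of the median level per kb of X-linked genes to that of genes on chromosomes 2 and 3 in each library (axis from 0.8), for *ovo* siRNA (left) and *renilla* siRNA (right); circles, squares and diamonds are replicates 1, 2 and 3, and the line and bar are the mean and SD. All 6 ratios lie under 1 (dashed), between 0.911 and 0.920 with the *ovo* siRNA and between 0.870 and 0.888 with the *renilla* siRNA. The groups overlapped over genes averaging 100 normalized counts or more and against chromosome arm 2R alone. No correction for GC or length was applied.

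CCGTTA is the preferred binding motif of Ovo. The promoters of the members, 250 bases before to 50 bases after the annotated start, were searched on both strands for these letters. They were found in 0 of the 7, against 8.03% of 18277 promoters. The looser form CNGTTA, which includes CCGTTA, was found at 5 places for *lncRNA:roX1*, at 2 for *msl-2* and at 1 for *msl-3*, against 37.4% of all promoters with at least 1. *mof*, *mle*, *msl-1* and *lncRNA:roX2* held neither. These are matches of letters, not measured sites.

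The members also differed in how they varied between libraries. *renilla* siRNA replicate 3 stood at 0.330 of the mean of the other *renilla* siRNA libraries for *msl-2*, at 0.624 for *mle* and at 0.628 for *msl-1*, at 0.987 for *mof* and 1.11 for *msl-3*, and at 1.77 for *lncRNA:roX1* and 3.31 for *lncRNA:roX2*. The exons of *msl-2*, *mle* and *msl-1* are 3843, 4641 and 5021 bases long, those of *mof* and *msl-3* 3014 and 1970 bases, and those of *lncRNA:roX1* and *lncRNA:roX2* 5468 and 1368 bases. The genes that ran most like *msl-2* over the 6 libraries, among 6333 that averaged 100 normalized counts or more, were *Rbsn-5* (Pearson r of 0.999), *CG16952* (0.998) and *Su(z)12* (0.998), and 323 genes exceeded an r of 0.95. For *lncRNA:roX1* they were *CG3625* (0.993), *CG14464* (0.991) and *CG14966* (0.989), with 77 genes above 0.95. These correlations describe 6 libraries that share depth and length differences, and *renilla* siRNA replicate 3 was the lowest library for *msl-2* and the highest for *lncRNA:roX1*.

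**Figure D5:**
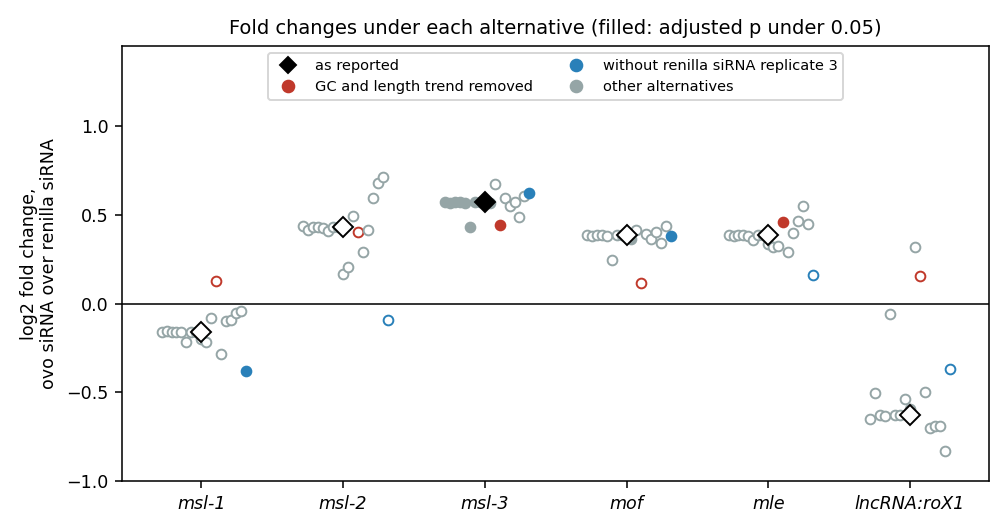
Log2 fold change of each member tested, *ovo* siRNA over *renilla* siRNA, as reported (diamonds) and under each alternative (circles), filled where the adjusted p is under 0.05. *msl-3*, *mof* and *mle* stay above 0 throughout, while *msl-1*, *msl-2* and *lncRNA:roX1* change sign under at least 1 alternative.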

How the data were processed

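RNA-seq was analysed for 3 *ovo* siRNA and 3 *renilla* siRNA libraries of Δ*l(3)mbt* OSCs. Per the labels, 500 ng of total RNA were poly(A)-selected for directional libraries. Tools listed in the submitters' processing notes were STAR 2.7.3a, cutadapt 1.18, Subread 1.5.3 (featureCounts) and DESeq2 1.30.1, with the BDGP6 (dm6) genome. The authors deposited a signal per gene, namely read counts divided by DESeq2 size factors. Dividing by the smallest step returned whole reads for 100% of values (within 0.01). The deposited fold changes and p-values were not used.

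Genes reaching 10 normalized counts in 3 or more libraries were tested with limma 3.58.1 (trended prior) on log2(normalized count + 1), so fold changes of low genes are understated. P values were two-sided and adjusted by Benjamini-Hochberg over 7893 genes, of which 931 rose and 1114 fell, at a threshold of 0.05. On recovered reads, edgeR 4.0.16 called 2284 genes and DESeq2 1.42.0 called 2634. The procedure was tested on simulated counts that held no trend in length or GC, so that test does not cover such trends. Of 17807 symbols, 17018 matched the annotation directly, 723 by an older symbol and 66 not. The trend in GC and length was fitted with splines of 5 degrees of freedom for 99.7% of genes tested.

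Named were the 7 members, *ovo*, *l(3)mbt*, *Sxl* and, per related list, up to 4 called genes by lowest adjusted p or, without calls, the 2 of highest mean. *how*, *vir*, *Mettl14*, *JIL-1* and *Nup153* were added after their values were seen. The members and lists were chosen with earlier results of these data known. Other alternatives were TMM scaling, quantile normalization, a robust prior, a replicate block, thinned reads, pseudocounts of 5 and 0.5, a minimum of 50 normalized counts or none, and leaving out each library.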

Additional observations from a re-analysis of the deposited data

How the results depend on the processing

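Across 18 alternatives *msl-3* kept its direction and was called in 12. Members changed numbered 1 as reported, 2 with edgeR, DESeq2 or the GC and length trend removed, and 0 with thinned reads. Leaving out 1 library gave 0 to 3 members, 496 to 3905 genes changed (2045 as reported; 496 without *ovo* siRNA replicate 2 and 3905 without *renilla* siRNA replicate 3) and 109 to 751 X-linked genes changed (439 as reported). *msl-1* turned to 0.13 and *lncRNA:roX1* to 0.16 with the trend removed, *lncRNA:roX1* to 0.32 with thinned reads, and *msl-2* ran between -0.0945 and 0.71 with 1 library left out (-0.0945 without *renilla* siRNA replicate 3); the cause was not tested. The *Sxl* list had 2 calls with the trend removed and 3 to 5 with 1 library left out. The splicing cofactors had 1 call with quantile normalization or DESeq2, 2 with the trend removed and 0 to 4 with 1 library left out. The NSL complex had 1 with the trend removed. The MSL-linked chromatin factors had 1 with quantile normalization, 2 with DESeq2 or the trend removed and 0 to 5 with 1 library left out. The difference in the ratio of X-linked to autosomal levels was 0.0196 over genes of at least 100 normalized counts, 0.0537 against chromosome arm 2L, 0.0188 against 2R (where the groups overlapped), 0.0590 against 3L and 0.0244 against 3R.

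Deviations of libraries with the same replicate number correlated at r of 0.442, -0.143 and 0.464 for numbers 1, 2 and 3. Not every library correlated best with its own number, and the labels name no pairs, so the numbers were not taken as pairs. These correlations cannot settle whether pairs exist, because the deviations also followed transcript length. With the replicate block 2978 genes changed instead of 2045, the members called stayed at 1, the splicing cofactors had 2 calls and the MSL-linked chromatin factors 4. The lowest read counts behind a member were 5 for *lncRNA:roX2* in *ovo* siRNA replicate 2 and 6 for *lncRNA:roX1* in *renilla* siRNA replicate 3, and the counting intervals of *lncRNA:roX1* overlapped across all 6 libraries.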
